A study of Homo sapiens with 6 samples.

Results

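The genes described here are 10 feedback regulators and early targets of TGF-beta and BMP signalling: SKI, SKIL, SMAD6, SMAD7, SMURF1, BAMBI and the inhibitors of DNA binding ID1, ID2, ID3 and ID4. They were chosen by gene name, and each matched 1 row among the 58884 genes listed. RNA-seq was made from HEK293FT cells, a human embryonic kidney line that carries the SV40 large T antigen. For 72 h the cells had been given conditioned supernatant, either with secreted ISLR (3 libraries, titled ISLR) or from an empty-vector control (3 libraries, titled NC). All libraries came from this single line in medium with serum, and the amount of ISLR in the supernatants is not given in the labels. The values are TPM, a measure of transcript abundance per unit of gene length.

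The ISLR transcript was almost absent under the ISLR label and abundant under the NC label. The 3 ISLR-labelled libraries list it at 0, 0.02 and 0 TPM, and the 3 NC-labelled libraries at 510.32, 555.37 and 535.06 TPM. The treatment described is a supernatant given to the cells, which states nothing about their own ISLR transcript. The source of the high values under the NC label was not tested. Groups are therefore named only by label, and an exchange of labels in the deposited table would turn every direction below. Depth is unknown, since TPM keeps no record of it. Of 8 markers of HEK293 cells, 7 reached 1 TPM in all 6 libraries. Markers of blood and endothelium summed to at most 0.61 and 0.1 TPM in any library, and those of stroma to at most 3.05 TPM.

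TGF-beta, activin and BMP ligands bind pairs of receptor kinases, which phosphorylate SMAD proteins that enter the nucleus and switch on genes. Several of these target genes act back on the pathway. SMAD6 and SMAD7 are inhibitory SMADs that block the receptors, SMURF1 is a ubiquitin ligase that marks SMADs and receptors for degradation, and BAMBI is a membrane pseudoreceptor without a kinase. SKI and SKIL (SnoN) are nuclear corepressors that bind SMAD complexes. The ID genes are classic BMP targets, and their products hold back differentiation in many cell types by sequestering basic helix-loop-helix (bHLH) transcription factors.

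The 10 genes did not move as 1 group. SKI and ID4 were 2.71 and 1.70 times as high in mean TPM in ISLR-labelled libraries as in NC-labelled ones, and ID3 and BAMBI were lower, with means 1.38 and 1.39 times as high in NC-labelled libraries as in the ISLR-labelled ones. SMURF1 and ID2 also passed as higher on the deposited scale. SKIL, SMAD6, SMAD7 and ID1 did not pass. All 10 genes reached at least 1 TPM in at least 3 libraries and were tested with limma on log2(TPM + 1), with Benjamini-Hochberg adjustment over 13869 genes and an adjusted p under 0.05 as the threshold. Thus 6 of 10 were called (background over all tested genes 45.9%), 4 of them higher (background 38.5%) and 2 lower (background 7.38%). The groups did not overlap for 8 of 10 genes (background 56.8%), 6 of them higher (background 46.3%) and 2 lower (background 10.5%). By the authors' deposited table, adjusted p was under 0.05 for 8 of 10 genes (background 51.2%), 5 with a higher mean (background 32.9%) and 3 with a lower one (background 18.3%). The median log2 difference, with NC subtracted from ISLR, was 0.23 over the 10 genes and 0.22 over all tested genes.

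Because most genes stood higher in ISLR-labelled libraries on the deposited scale, the test was repeated after median-of-ratios scaling, which brings the median log2 difference of all tested genes to 0.00135. On that scale 4 of 10 genes were called (background 38.6%), SKI and ID4 higher (2 of 10, background 18.2%) and ID3 and BAMBI lower (2 of 10, background 20.4%). These counts over the 10 genes lie near the share of all genes, so the statements below are about single genes. Nothing in the labels ties the 3 libraries of a group to separate cultures, so the p-values cover no more than the scatter among these libraries, and that scatter may be technical. In such bulk samples, fewer cells making a transcript and less of it per cell cannot be told apart.

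**Figure D1:**
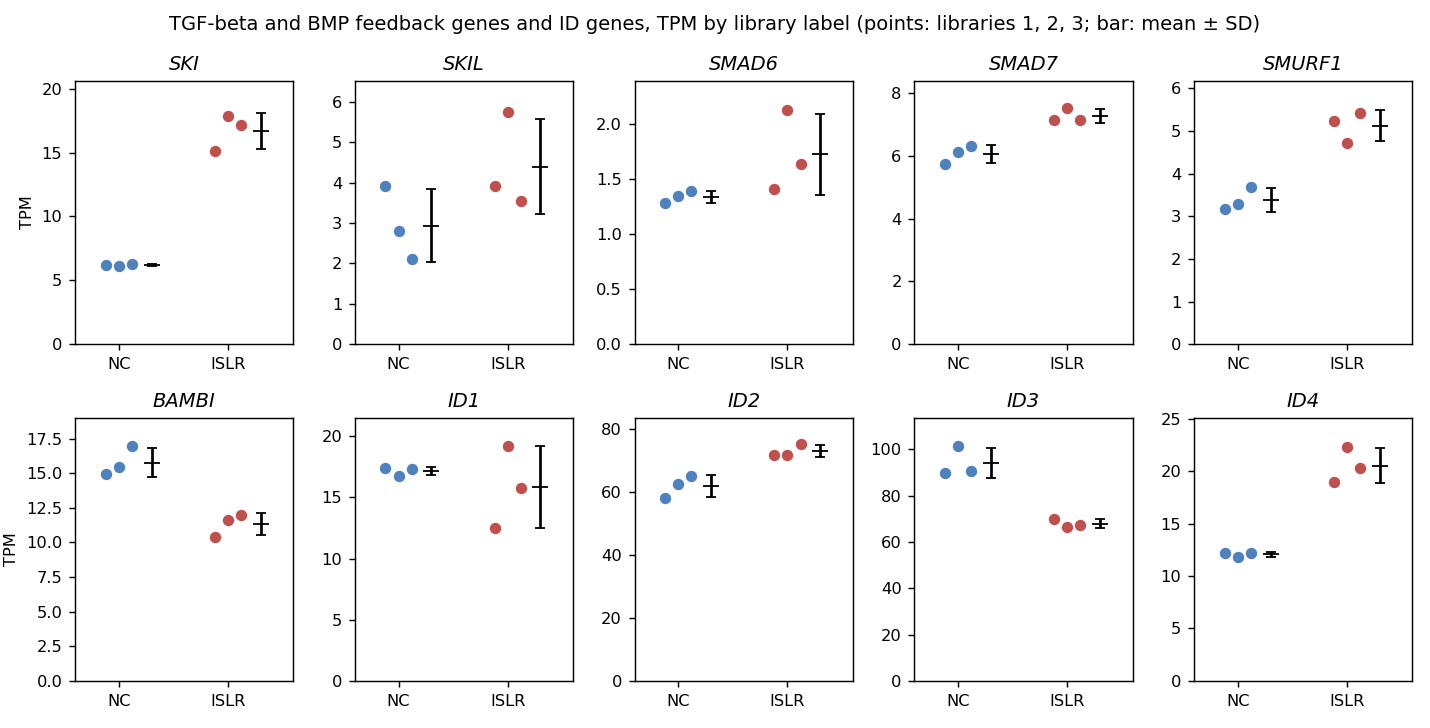
TPM of the 10 genes in each library (y axes start at 0 and differ between panels), with points for libraries 1, 2 and 3 of each label and a bar for mean ± SD. The groups are apart for SKI, ID4, SMURF1, ID2, SMAD7 and SMAD6 (higher when labelled ISLR). They are also apart for ID3 and BAMBI (lower when labelled ISLR), and overlap for SKIL and ID1.

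The promoters of ID3 and BAMBI, which fell, and of ID4, which rose, are shown with that of SMAD6, the one that holds the full palindromic SMAD-binding element. RefSeq windows on GRCh38.p14 (250 bases before to 50 after a transcription start) were found for 9 of the 10 genes, all but SKI, in 11 windows. They lie at chr1:23559452-23559751 on the minus strand for ID3, chr10:28677271-28677570 on the plus strand for BAMBI, chr6:19837120-19837419 on the plus strand for ID4 and chr15:66701986-66702285 on the plus strand for SMAD6. Capitals mark GTCTAGAC (the palindromic SMAD-binding element), CAGAC (a shorter SMAD-binding box) and GGCGCC (a GC-rich element known from BMP-activated SMADs), searched on both strands.
ID3: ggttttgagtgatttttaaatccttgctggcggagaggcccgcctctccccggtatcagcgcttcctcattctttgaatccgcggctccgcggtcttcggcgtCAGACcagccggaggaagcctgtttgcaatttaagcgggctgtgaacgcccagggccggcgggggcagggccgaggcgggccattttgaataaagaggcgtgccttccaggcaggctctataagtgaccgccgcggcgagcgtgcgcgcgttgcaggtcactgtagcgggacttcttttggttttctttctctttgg
BAMBI: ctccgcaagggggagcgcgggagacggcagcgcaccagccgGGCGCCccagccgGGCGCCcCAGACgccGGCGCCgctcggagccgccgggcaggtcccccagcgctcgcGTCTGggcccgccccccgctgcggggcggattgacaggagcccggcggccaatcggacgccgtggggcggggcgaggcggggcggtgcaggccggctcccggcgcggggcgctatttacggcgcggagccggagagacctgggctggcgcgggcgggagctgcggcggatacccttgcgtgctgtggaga
ID4: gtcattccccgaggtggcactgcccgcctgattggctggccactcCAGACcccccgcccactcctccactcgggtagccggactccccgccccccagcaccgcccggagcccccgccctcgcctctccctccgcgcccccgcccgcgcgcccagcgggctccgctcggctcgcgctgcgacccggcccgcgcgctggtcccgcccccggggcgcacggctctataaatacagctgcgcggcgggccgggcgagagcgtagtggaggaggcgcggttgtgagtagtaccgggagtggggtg
SMAD6: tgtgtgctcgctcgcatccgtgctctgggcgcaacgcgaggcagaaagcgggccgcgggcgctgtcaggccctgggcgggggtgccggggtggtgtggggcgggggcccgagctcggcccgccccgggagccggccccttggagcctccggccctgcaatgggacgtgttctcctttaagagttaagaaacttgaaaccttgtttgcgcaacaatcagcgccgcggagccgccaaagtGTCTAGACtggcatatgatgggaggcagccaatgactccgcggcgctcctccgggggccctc

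GTCTAGAC was found in the SMAD6 window alone among the 9 genes, from position -12 relative to the start, and in 0.202% of all 35116 windows of this length. GGCGCC was found in the windows of BAMBI, 3 times, and SKIL, and in 19.2% of all windows. CAGAC was found in 6 of the 9 genes (SKIL, SMAD7, ID3, ID4, BAMBI and SMURF1) and in 45.3% of all windows, and none of its matches overlapped the other motifs in the 4 windows printed. The E-box CANNTG, the site of the bHLH factors that ID proteins restrain, was found in 4 of the 9 genes (SMAD6, SMAD7, ID2 and ID4) and in 68.7% of all windows. ID3 and ID4, which differed in direction, each held 1 CAGAC, and the ID1 window held none of the 4 motifs. A gene was counted if any of its windows held the motif, and SMAD7 had several windows. Counts of genes and shares of windows are therefore not like for like. A match is a description of the letters only.

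SKI was the gene that moved most. It encodes a corepressor of SMAD complexes and spans chromosome 1, 2228695 to 2310119, plus strand (ENSG00000157933.9, protein-coding, GENCODE 29 on GRCh38, the build of all gene positions below). It stood at 15.16, 17.88 and 17.13 TPM in ISLR-labelled libraries and at 6.18, 6.1 and 6.26 TPM in the NC-labelled ones. The lowest ISLR-labelled library was thus well above the highest NC-labelled one. The log2 difference was 1.30 (SE 0.0841, 95% interval 1.10 to 1.50, adjusted p = 0.000107) and 1.07 after scaling (adjusted p = 0.000155). Only 104 of the 13869 tested genes had a larger positive difference. SKI is the only one of the 10 genes that the authors' deposited table marks as significant (1.65% of the tested genes carry that mark), with an adjusted p of 7.54e-57 there.

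SKIL, the paralogue of SKI, was lower in level and much more scattered. It stood at 3.91, 5.74 and 3.55 TPM in ISLR-labelled libraries against 3.91, 2.8 and 2.1 TPM in the NC-labelled ones. The groups overlapped, with 1 library of each label at 3.91 TPM. Its log2 difference of 0.46 (95% interval -0.05 to 0.97) did not pass (adjusted p = 0.120, and 0.369 after scaling). The authors' deposited table gives SKIL an adjusted p of 0.0117. Taken within each library, which removes the scale between libraries, the ratio of SKI to SKIL was 3.88, 3.11 and 4.83 in ISLR-labelled libraries and 1.58, 2.18 and 2.98 in the NC-labelled ones. These ratios did not overlap (two-sided exact permutation p = 0.1, the smallest that 3 against 3 libraries allow). SKIL spans chromosome 3, 170357678 to 170396835, plus strand.

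Neither inhibitory SMAD passed the test. SMAD7, which inhibits both TGF-beta and BMP receptors (chromosome 18, 48919853 to 48952052, minus strand), stood at 7.14, 7.54 and 7.16 TPM in ISLR-labelled libraries and 5.76, 6.14 and 6.33 TPM in the NC-labelled ones. The groups did not overlap, yet the log2 difference of 0.23 (95% interval 0.03 to 0.42) did not pass (adjusted p = 0.0595). After scaling it was 0.01 (95% interval -0.18 to 0.20, adjusted p = 0.933), so the gap on the deposited scale was about that of the median gene. SMAD6, which acts mainly on BMP receptors (chromosome 15, 66702228 to 66782848, plus strand), was the least abundant of the 10 genes. Its values were 1.41, 2.13 and 1.64 TPM in ISLR-labelled libraries and 1.28, 1.35 and 1.39 TPM in the NC-labelled ones. The groups were separated by 0.02 TPM on the deposited scale and overlapped after scaling, with a log2 difference of 0.21 (adjusted p = 0.260) and 0.06 (adjusted p = 0.750). The ratio of SMAD7 to SMAD6 was 4.32 ± 0.763 in ISLR-labelled libraries and 4.53 ± 0.0296 in the NC-labelled ones (SD, n = 3 each, two-sided exact permutation p = 0.7).

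SMURF1, the ubiquitin ligase that works with the inhibitory SMADs (chromosome 7, 99027438 to 99144100, minus strand), stood at 5.24, 4.72 and 5.42 TPM in ISLR-labelled libraries and at 3.17, 3.28 and 3.69 TPM in the NC-labelled ones. Every ISLR-labelled library was above every NC-labelled library. The log2 difference was 0.48 (SE 0.104, adjusted p = 0.00843), and 0.28 after scaling (95% interval 0.04 to 0.52, adjusted p = 0.0641), where the call ended. SMURF1 shares 23394 bases of its span with TRRAP, which is transcribed from the opposite strand. TRRAP stood at 11.6 ± 0.617 TPM in ISLR-labelled libraries and 7.39 ± 0.54 TPM in the NC-labelled ones (adjusted p = 0.00177). No source used here says if reads were counted by strand, and the part of TRRAP reads in the SMURF1 values was not tested.

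BAMBI, the pseudoreceptor that damps TGF-beta, activin and BMP signals (chromosome 10, 28677342 to 28682939, plus strand), fell. It stood at 10.4, 11.59 and 11.96 TPM in ISLR-labelled libraries and at 14.93, 15.42 and 16.95 TPM in the NC-labelled ones. The highest ISLR-labelled library was below the lowest NC-labelled one. The log2 difference was -0.45 (SE 0.0837, 95% interval -0.64 to -0.25, adjusted p = 0.00482) and -0.68 after scaling (adjusted p = 0.000736). BAMBI was thus called lower on both scales, as ID3 was. The BAMBI promoter is the one above with 3 GGCGCC, and that of ID3 holds none. A link between motif and direction was not tested.

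The 4 ID genes went apart from each other. ID3 (chromosome 1, 23557918 to 23559794, minus strand) fell. It stood at 69.98, 66.35 and 67.21 TPM in ISLR-labelled libraries and at 89.93, 101.48 and 90.42 TPM in the NC-labelled ones. The highest ISLR-labelled library was below the lowest NC-labelled one, and the log2 difference was -0.46 (SE 0.0563, adjusted p = 0.000878) and -0.71 after scaling (adjusted p = 0.000335).

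ID4 (chromosome 6, 19837386 to 19840684, plus strand), a family member best known from neural progenitors, rose. It stood at 19.01, 22.29 and 20.26 TPM in ISLR-labelled libraries and at 12.22, 11.79 and 12.24 TPM in the NC-labelled ones. The groups were far apart, with a log2 difference of 0.72 (SE 0.076, adjusted p = 0.000528) and 0.48 after scaling (adjusted p = 0.00221). An antisense gene over ID4, AL022068.1, reached at most 2.23 TPM in any library.

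ID2 (chromosome 2, 8678845 to 8684453, plus strand) stood at 71.92, 71.88 and 75.26 TPM in ISLR-labelled libraries and at 58.08, 62.78 and 65.08 TPM in the NC-labelled ones. The groups did not overlap, and the log2 difference of 0.23 (SE 0.0527) passed on the deposited scale (adjusted p = 0.0101). After scaling it was -0.01 (95% interval -0.13 to 0.11, adjusted p = 0.874), so that ID2 differed by about as much as the median gene. The antisense gene ID2-AS1 reached at most 1.21 TPM.

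ID1 (chromosome 20, 31605283 to 31606515, plus strand), the ID gene most used as a readout of BMP signalling, stood at 12.47, 19.21 and 15.8 TPM in ISLR-labelled libraries and at 17.36, 16.73 and 17.33 TPM in the NC-labelled ones. ISLR-labelled libraries were spread to both sides of the NC-labelled ones. The log2 difference of -0.13 did not pass (adjusted p = 0.487). After scaling the groups no longer overlapped, with a log2 difference of -0.36 (95% interval -0.68 to -0.05, adjusted p = 0.0678). Without ISLR library 2, where ID1 was highest, the scaled difference was -0.50 and passed (adjusted p = 0.0132). With any other single library left out it did not pass (adjusted p = 0.123 to 0.142), so that call rests on leaving out this library. In the authors' deposited table ID1 has an adjusted p of 0.00106, with the lower mean in ISLR-labelled libraries.

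The ID transcripts differed in their make-up. The summed TPM of ID1 to ID4 was 177.2 ± 3.37 in ISLR-labelled libraries and 185.1 ± 7.6 in the NC-labelled ones (SD, n = 3 each), and the groups overlapped. After scaling the sum was 162.1 ± 1.62 against 201.3 ± 9.58, and the groups did not overlap. ID3 held 40.4%, 36.9% and 37.6% of this sum in ISLR-labelled libraries and 50.6%, 52.6% and 48.9% in the NC-labelled ones. ID2 held 41.2 ± 1.11% against 33.5 ± 1.46%, ID4 11.6 ± 0.744% against 6.54 ± 0.388%, and ID1 8.91 ± 1.75% against 9.27 ± 0.554%. The ID1 shares overlapped between the groups, and those of the other 3 genes did not. The shares, unlike the sum, do not depend on the scale between libraries. They may still depend on the trend with gene length given below, and were not recomputed with that trend removed.

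In the deposited TPM, the leading ID transcript was accordingly a different one under each label. The ratio of ID2 to ID3 was 1.03, 1.08 and 1.12 in ISLR-labelled libraries and 0.646, 0.619 and 0.72 in the NC-labelled ones, so ID2 exceeded ID3 in every library of the first group and in none of the second. The ratio of ID4 to ID3 was 0.303 ± 0.0322 against 0.129 ± 0.0112, with no overlap. For both ratios the two-sided exact permutation p was 0.1, the smallest possible with 3 against 3 libraries. In all, 6 ratios were computed between the 10 genes. On the deposited scale ID2 and ID4 were each apart as higher and ID3 as lower. Neither ratio could then overlap, so this p adds nothing to the values of the single genes. The lead of ID2 over ID3 in ISLR-labelled libraries was small, and the listed lengths differ (2041 nt for ID2, 950 nt for ID3). If this lead holds with the trend with length removed was not tested.

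**Figure D2:**
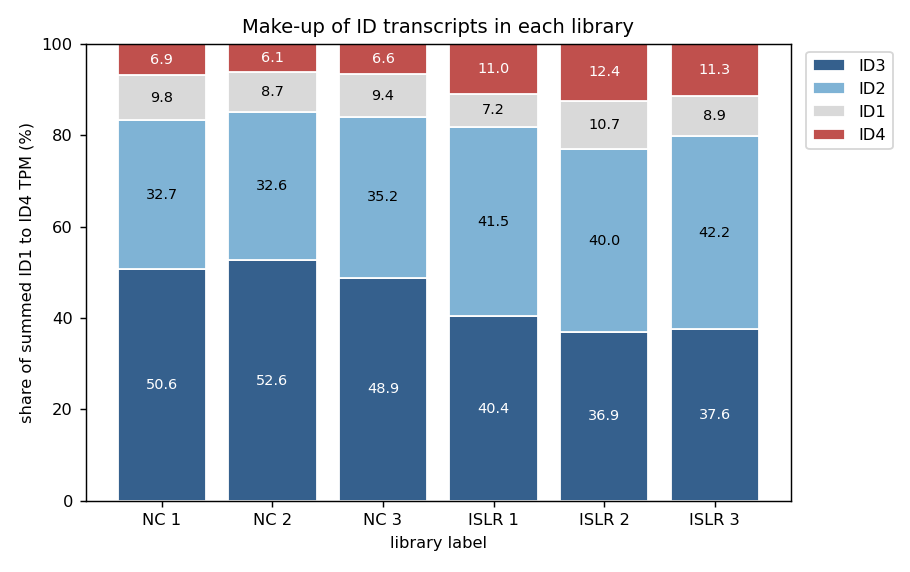
Share of ID1, ID2, ID3 and ID4 in their summed TPM (y axis, percent) in each library (x axis). ID3 takes 48.9% to 52.6% in NC-labelled libraries and 36.9% to 40.4% in the ISLR-labelled ones, and ID4 is larger in each ISLR-labelled library.

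The order of levels, in TPM, began with ID2 and ID3 in ISLR-labelled libraries (73.0 ± 1.94 and 67.8 ± 1.9) and with ID3 and ID2 in the NC-labelled ones (93.9 ± 6.53 and 62.0 ± 3.57). In ISLR-labelled libraries, ID4, SKI, ID1, BAMBI, SMAD7, SMURF1, SKIL and SMAD6 followed. In the NC-labelled ones the order was ID1, BAMBI, ID4, SKI, SMAD7, SMURF1, SKIL and SMAD6. Neighbours whose libraries overlapped were SKI and ID1 in the first group, ID1 with BAMBI and SKI with SMAD7 in the second, and SMURF1 with SKIL in both. SKI stood beside SMAD7 in NC-labelled libraries (6.18 ± 0.08 and 6.08 ± 0.29 TPM) and well above it in the ISLR-labelled ones (16.7 ± 1.4 against 7.28 ± 0.225 TPM).

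Gene length moved with these differences and is given beside them. ID3 and ID1 have listed lengths of 950 and 1233 nt and BAMBI has 1884 nt, while SKI, SMURF1 and SKIL have 6083, 5737 and 7182 nt. The ID genes differed in the order of their lengths, from ID3 and ID1 through ID2 (2041 nt) to ID4 (3873 nt). Among the 1387 tested genes of 81 to 1052 nt, the tenth that holds ID3, the median log2 difference was -0.02 and 15.6% were called lower. Of those genes, 12.8% had a more negative difference than ID3. In the tenth that holds BAMBI, of 1762 to 2266 nt, 9.65% were called lower and 3.24% had a more negative difference than BAMBI. In that of SKI, of 5667 to 7343 nt, the median was 0.32 and 0.649% had a larger difference than SKI. In that of ID4, of 3343 to 3983 nt, 9.44% had a larger difference than ID4. With the trend with length removed after scaling, an alternative chosen after seeing the data, the 4 genes were still called, at log2 differences of 0.98 for SKI, 0.43 for ID4, -0.55 for ID3 and -0.60 for BAMBI (adjusted p = 0.00028, 0.00416, 0.00105 and 0.00144). ID1 and ID2 stood at -0.22 and 0.05 in that fit and did not pass (adjusted p = 0.233 and 0.474).

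**Figure D3:**
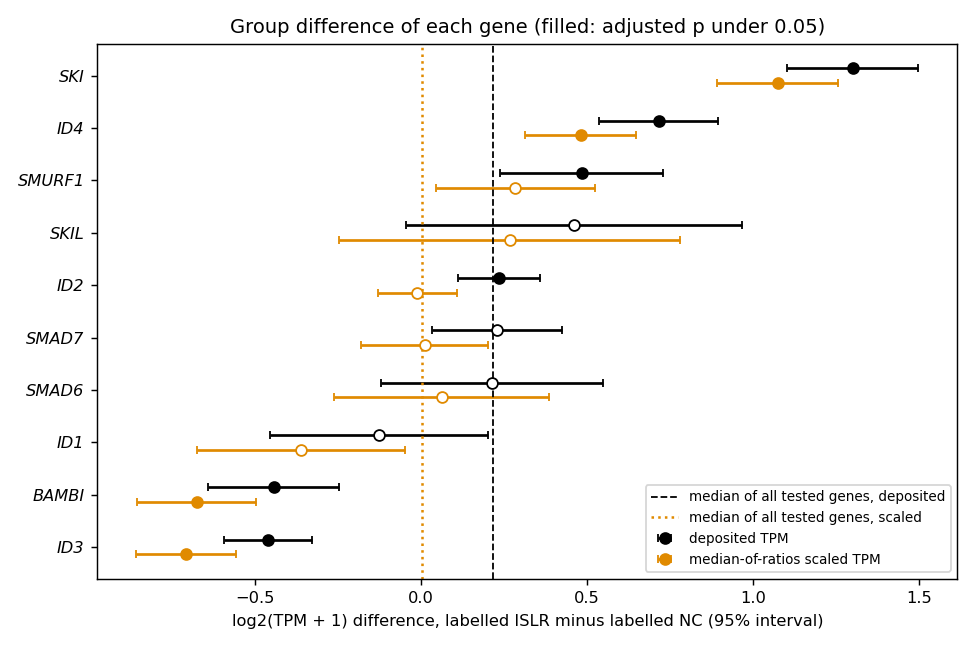
Log2(TPM + 1) difference, labelled ISLR minus labelled NC (x axis), with 95% interval for each gene on the deposited scale (black) and after median-of-ratios scaling (orange), filled where the adjusted p was under 0.05. The lines mark the median of all tested genes on each scale (0.22 and 0.00135). SKI and ID4 lie to the right of both lines and BAMBI and ID3 to the left.

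Library 2 of the ISLR label had the highest value of its group for 6 of the 10 genes (SKI, SKIL, SMAD6, SMAD7, ID1 and ID4), and 34.7% of all tested genes were highest there. In the group labelled NC, library 3 was highest for 7 of the 10 and for 34.9% of all tested genes. The scatter was greatest for the genes with the widest intervals. The coefficient of variation within the group labelled ISLR was 26.7% for SKIL, 21.3% for SMAD6 and 21.3% for ID1, and 2.66% to 8.4% for the other 7 genes. In the group labelled NC it was 31.1% for SKIL and 1.29% to 8.11% for the other 9.

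Other genes of the pathway were read from 8 lists. Their counts stand against 38.5% called higher and 7.38% lower among all tested genes, and 18.2% and 20.4% after scaling. These shares differ with gene length. On the deposited scale 14.5% of tested genes of 81 to 1052 nt were higher, and 47.6% of those of 5667 to 7343 nt. The lists were not matched for length. Of 6 receptor-regulated and common SMADs, 4 were called higher and none lower (2 and none after scaling). SMAD1, which carries BMP signals, stood at 4.23 ± 0.139 against 1.56 ± 0.136 TPM (mean ± SD, n = 3 each, ISLR-labelled before NC-labelled here and below, log2 difference 1.03, adjusted p = 0.000494). SMAD3, which carries TGF-beta and activin signals, stood at 6.25 ± 0.607 against 3.76 ± 0.598 TPM (0.61, adjusted p = 0.00696). Both passed after scaling, SMAD1 with an adjusted p of 0.00113 and SMAD3 with 0.0471, just under the threshold. SMAD5, also of the BMP branch, passed on the deposited scale only (0.27, adjusted p = 0.0144), and the authors' deposited table gives it an adjusted p of 0.836.

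Of 13 tested BMP ligands and receptors, 8 were called higher and none lower, and 4 and 1 after scaling (all tested genes: 38.5% and 7.38%, and 18.2% and 20.4% after scaling). RGMA, a BMP coreceptor, stood at 11.1 ± 0.977 against 4.76 ± 0.717 TPM (log2 difference 1.07). The type I receptor BMPR1A stood at 5.62 ± 0.761 against 2.79 ± 0.321 TPM (0.80), and the ligand BMP6 at 7.45 ± 0.459 against 3.93 ± 0.332 TPM (0.78). These 3 were also called after scaling. The medians of this list were 0.50 as deposited and 0.33 after scaling, and those of all tested genes 0.22 and 0.00135.

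Of 11 tested TGF-beta and activin ligands and receptors, 6 were called higher and none lower (3 and none after scaling). Of all tested genes 38.5% were higher (18.2% after scaling). No row was matched by name for TGFB1 and CRIPTO, so this list says nothing of them. INHBA, a subunit of activin, had a log2 difference of 2.31, the type I receptor ACVR1B 0.42 and TGFBR1 0.49, and INHBA alone of these 3 passed after scaling. Of 7 tested extracellular antagonists, 3 were higher and none lower (1 and 1 after scaling), against the same shares. FSTL3, which binds activin, stood at 14.3 ± 0.641 against 7.57 ± 0.531 TPM (0.84, adjusted p = 0.000405), while the BMP antagonist CHRD (0.40) and FSTL1 (0.18) passed on the deposited scale only. The authors' deposited table gives CHRD an adjusted p of 0.147.

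Of 18 other tested feedback and ubiquitin regulators, 8 were higher and none lower, but 1 and 4 after scaling. Both counts lie near the shares of all tested genes (38.5% higher as deposited, 20.4% lower after scaling). ITCH (log2 difference 0.61), a ubiquitin ligase, and the deubiquitinases USP9X (0.45) and UCHL5 (0.44) passed on the deposited scale only. Of 15 SMAD corepressors and their partners other than SKI and SKIL, 8 were higher and 1 lower (4 and 2 after scaling), against 38.5% and 7.38% of all tested genes (18.2% and 20.4%). The C-terminal binding proteins CTBP1 (0.69) and CTBP2 (0.48) rose and the histone deacetylase HDAC1 fell, at 157.2 ± 1.24 against 189.1 ± 1.67 TPM (-0.26, adjusted p = 0.000513), on both scales.

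Among E proteins and other bHLH factors, 5 of 12 tested genes were higher and none lower (4 and none after scaling), the first near the 38.5% of all tested genes. After scaling 18.2% of all tested genes were higher. HES1, a repressor, stood at 28.7 ± 1.54 against 12.2 ± 0.501 TPM (log2 difference 1.17, adjusted p = 8.06e-05) and its relative HEY1 at 136.3 ± 2.71 against 78.8 ± 0.727 TPM (0.78, adjusted p = 3e-05). TFAP4 (0.66) was the third by p-value. The E proteins TCF3, TCF4 and TCF12, the main partners of ID proteins, did not pass (adjusted p = 0.112, 0.515 and 0.343).

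Of 14 tested TGF-beta target genes, 5 were higher and 2 lower (3 and 3 after scaling). These counts lie near the shares of all tested genes (38.5% and 7.38%, and 18.2% and 20.4% after scaling). The median log2 difference of this list was 0.13 as deposited and -0.094 after scaling, and those of all tested genes were 0.22 and 0.00135. SNAI2, a transcription factor of epithelial-mesenchymal transition, stood at 14.1 ± 0.612 against 7.96 ± 0.212 TPM (0.76, adjusted p = 0.000391). Its relative SNAI1 fell, with 9.57 ± 0.332 against 14.1 ± 0.602 TPM (-0.51, adjusted p = 0.0015, and -0.74 after scaling, adjusted p = 0.000414). CDKN1A, a cell cycle inhibitor, rose by 0.37 on the deposited scale (adjusted p = 0.000247) and by 0.12 after scaling (adjusted p = 0.0285), and the authors' deposited table gives it an adjusted p of 0.126. JUNB, an AP-1 factor, fell, with 24.6 ± 0.733 against 48.7 ± 1.77 TPM (-0.96, adjusted p = 6.6e-05). SNAI2 and JUNB were also called in the same direction after scaling.

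**Figure D4:**
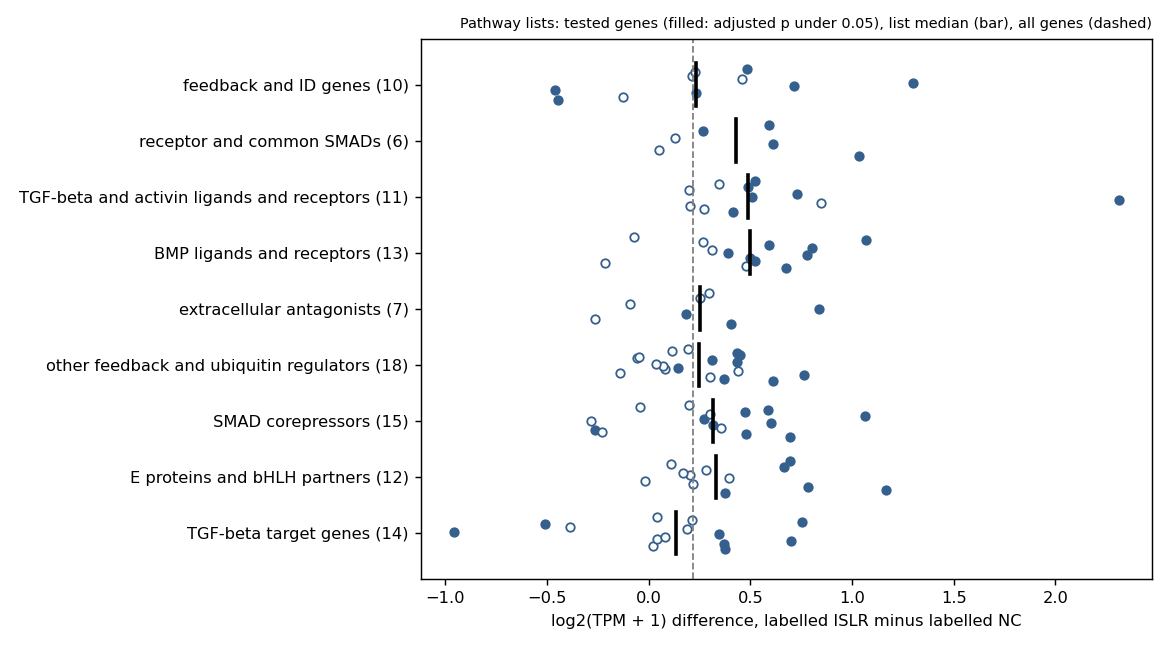
Log2(TPM + 1) difference, labelled ISLR minus labelled NC (x axis), of the tested genes of each list (rows, number tested in brackets), filled where the adjusted p was under 0.05, with the list median as a bar and the median of all tested genes as a dashed line at 0.22. The 10 feedback and ID genes spread to both sides, from -0.46 for ID3 to 1.30 for SKI.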

How the data were processed

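The authors deposited TPM (transcript abundance per unit of gene length) per gene for each of 6 libraries, with their mean TPM per group. The authors also deposited a p-value and an adjusted p-value per gene from their own comparison, for which DESeq2 appears in the deposited table's name. HISAT2, Cufflinks and RSEM and the build GRCh38.p10 are named per the submitters' processing notes, without roles or versions. After 1 blank row was left out, genes that reached 1 TPM in 3 or more libraries were tested with limma 3.58.1 in R 4.3.3 on log2(TPM + 1), with group as the only term and the trend and robust options. A pseudocount of 1 understates the change of low genes. Fits were tested on simulated data. Library columns were matched by sample title. Replicate numbers did not pair the libraries.

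The 10 genes, the lists and the alternatives were chosen with earlier results of these data known. Named genes were the 10, ISLR, and the 3 with the smallest p-value of each pathway list. E proteins and SNAI1 were named after their values were seen. Older symbols were matched through GENCODE names, and promoters are from RefSeq on GRCh38.p14. Alternatives were median-of-ratios scaling, pseudocounts of 0.1 and 5, no filter, a 5 TPM filter, limma without trend and robust, a replicate block, each library left out and the authors' calls. Scaling combined with the block, with each library left out, or with removal of the length trend (lowess, span 0.3) was added after seeing the data. Figures used matplotlib 3.10.9 in Python 3.11.15.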

Additional observations from a re-analysis of the deposited data

How the results depend on the processing

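SKI, ID4, ID3 and BAMBI kept their direction and their call under all 22 alternatives run for each, the 6 leave-one-out fits on each scale included. Adjusted p under the limma settings was 3.45e-05 to 0.00309 for SKI, 0.000234 to 0.0123 for ID4, 0.000335 to 0.0067 for ID3 and 0.000736 to 0.0181 for BAMBI. ID2 and SMURF1 were called on the deposited scale only. With scaling, 2 of the 10 genes were called higher in place of 4, also with scaling and the replicate block, with scaling and the length trend removed, and with scaling and any library left out. The median log2 difference of the 10 genes was then 0.036, 0.036 with the block, 0.011 with the length trend removed and -0.0033 to 0.073 with ISLR or NC libraries left out (0.058 without ISLR library 3, and 0.0094, 0.046 and 0.053 without NC libraries 1, 2 and 3). Scaled without single libraries, 4116 to 4593 of all tested genes were called, with 4116 without ISLR library 3. With all libraries, 5348 were called after scaling and 6370 on the deposited scale. ID2 turned to -0.012 with scaling, -0.012 with the block as well, and -0.058 to 0.018 with scaling and a library left out (-0.014 without ISLR library 1, -0.022 without ISLR library 3 and -0.058 without NC library 1). SMAD6 turned to -0.026 with the length trend removed and -0.036 scaled without ISLR library 2. SMAD7 turned to -0.062 with the length trend removed, and scaled to -0.0092 without ISLR library 2 and -0.024 without NC library 1, but passed by limma without trend and robust (adjusted p = 0.0242). ID1 ran from -0.27 without ISLR library 2 to 0.023 without ISLR library 1, not called in either. The authors' deposited table calls SKIL and ID1 as well (adjusted p = 0.0117 and 0.00106). With a filter of 5 TPM, SKIL, SMAD6 and SMURF1 were not tested. The cause of these changes between settings was not tested.

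The replicate numbers of the labels did not pair the libraries: deviations from the group means correlated at 0.0201, 0.0468 and -0.0556 for equal numbers. With the replicate block, 5778 of all tested genes were called, and 4 of the 10 genes were higher and 2 lower, as without it. Because the depth is unknown, counting error for SMAD6 and SKIL, the least abundant genes, could not be given.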
